A study of Mus musculus with 24 samples.

Results

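The lungs of male C57BL/6 mice that received remote ischemic preconditioning, diesel exhaust and pirfenidone, labelled RIC+DE+PFD, were compared with the lungs of healthy control mice, labelled C. The members were chosen by label: 3 libraries of RIC+DE+PFD and 3 of C, 6 of the 24 libraries in the series. RIC+DE+PFD mice first had the left leg made ischemic for 5 min and released for 5 min, in 3 cycles, on 3 days a week for 4 weeks. They then breathed engine fumes for 30 min a day on 5 days a week over about 8 weeks, and were given oral pirfenidone at 300 mg/kg a day, 6 days a week, in 0.5% carboxymethylcellulose. The labels name no agent or handling for C mice, so effects of conditioning, exhaust, drug, carrier and handling cannot be told apart in this comparison. All mice were 20 weeks old, with interventions begun at 8 weeks of age, and the labels name no transgene or induced allele. The series has 6 other groups of 3 libraries each, which entered the fit only to share its estimate of spread and for the comparison with other diesel groups: the diesel groups DE, DE+PFD, RIC+DE (conditioning before exhaust), DE+RIC (conditioning during exhaust) and DE+PFD+RIC, and the unexposed group RIC. Polyadenylated RNA of whole lung was sequenced and the deposited reads per gene were counts. The labels do not say that the 3 libraries of a group are separate animals, so p-values below measure the spread between these libraries.

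In remote conditioning, brief bouts of ischemia in a limb change how a distant organ withstands injury, through humoral and neural signals. Pirfenidone is an antifibrotic drug that lowers collagen synthesis and transforming growth factor beta signalling in fibrotic lung. Diesel exhaust particles carry polycyclic hydrocarbons that engage the aryl hydrocarbon receptor and oxidants that engage NRF2, and their repeated inhalation inflames the airways. The comparison with healthy lungs asks how far lungs that had received all of these differ from lungs that had received none.

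The 6 libraries held 12224106, 11298160 and 9172489 counts in RIC+DE+PFD and 15975293, 7789841 and 8882332 in C. Library 1 of each group carries a date in March and libraries 2 and 3 carry a date in October, and the labels do not say what was done on those dates. Lung identity was plain in all 6: Sftpc, the surfactant protein C gene of alveolar type 2 cells, lay between 19800 and 68170 CPM (counts scaled to a common library total, with trimmed mean of M-values factors), and Scgb1a1, the secretoglobin of club cells, between 26960 and 156900. RIC+DE+PFD library 1 stood apart from all other libraries of the series. Its 100 most abundant genes took 39.6% of its counts, against 22.7% and 25.6% in RIC+DE+PFD libraries 2 and 3 and 20.1% to 22.5% in C. Its genes with the shortest exon sequence (up to 2893 bases) lay a median of 0.74 above the mean of all libraries on the log2 scale, and those with the longest (at least 5477 bases) lay at -0.79. Results are therefore given with and without that library.

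No gene passed an adjusted p of 0.05 between RIC+DE+PFD and C in edgeR's quasi-likelihood test with a term for the date (Benjamini-Hochberg adjustment, 17490 genes; 0% called higher and 0% called lower). The smallest adjusted p was 0.101. Without RIC+DE+PFD library 1 again none passed among 17598 genes, with a smallest adjusted p of 0.0658. At an unadjusted p under 0.05 lay 1940 higher genes (11.1%) and 1048 lower genes (5.99%) with all libraries, and 596 higher (3.39%) and 654 lower (3.72%) without library 1. Other ways of treating the libraries did make calls. DESeq2 called 33 genes, 11 higher and 22 lower. With no filter on low counts edgeR called 686 genes, 528 higher and 158 lower, and 681 of these were among the 17490 genes above. The October libraries alone, 2 against 2 with the spread shared across groups, gave 12 higher genes (0.0687% of 17477) and 19 lower genes (0.109%). A limma-voom fit that gave each library a weight, 0.0463 for RIC+DE+PFD library 1 and 0.498 to 2.44 for the other 5, called 144 higher genes (0.823%) and 132 lower genes (0.755%). Of the 31 October calls, 23 were also called with weights. In the text below, "higher" and "lower" describe values, and a gene is said to be called only where one of these fits called it.

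Heat shock genes had the highest median of all 59 lists without library 1, and with it only lists that rest on that library (ribosomal protein and oxidative phosphorylation genes, below) stood higher. Heat shock proteins are chaperones that fold, hold or refold other proteins, and their genes are induced by heat shock factor 1 through repeats of the letters GAA and their complement TTC. Of the 22 list members, all tested, 21 had a log2 fold change above 0, with a median of 0.93 against 0.001 over all genes, and 1.01 without library 1 against -0.009. In 9 members all 3 RIC+DE+PFD libraries lay above all 3 C libraries (6.35% of all genes did so), and in 16 members RIC+DE+PFD libraries 2 and 3 did (11.5% of all genes). At an unadjusted p under 0.05 stood 13 members, all higher (11.1% of all genes were), and 16 without library 1 (3.39% of all genes). The weighted fit called 11 of the 22 higher (0.823% of all genes) and none lower (0.755% of all genes). In these bulk samples more cells of a type and more RNA per cell cannot be told apart.

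The paired mitochondrial chaperonin genes share 1 promoter, shown here because it holds the element spelled out above. In the RefSeq promoter table for GRCm38.p6, which covers 250 bases before to 50 after each start, 17 of the 22 members have an entry, and 4 of these (23.5%) contain 3 such units in alternating direction with any 2 bases between them (GAA, TTC, GAA or TTC, GAA, TTC, either strand): Hspe1, Hspd1, Hsph1 and Chordc1. Both spellings overlap in the stretch below, where capitals mark the match, and 179 of all 27025 genes with a promoter (0.662%) hold one. A match is a description of letters and not of binding.

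Hspe1, chr1:55088028-55088107, plus strand: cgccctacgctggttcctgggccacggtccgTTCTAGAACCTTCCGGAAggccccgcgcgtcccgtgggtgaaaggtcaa

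Hspe1, the co-chaperonin transcribed from that strand, had 208, 90.2 and 117 CPM in RIC+DE+PFD libraries 1 to 3, against 44.8, 58.4 and 50.8 CPM in C. Every RIC+DE+PFD library was above every C library, with library 1 far above the other two. The log2 fold change was 1.39 ± 0.37 (SE; adjusted p = 0.25 by edgeR), and 0.98 ± 0.36 without library 1. Hspd1, the chaperonin itself, read in the opposite direction, had 139, 205 and 186 CPM in RIC+DE+PFD and 129, 102 and 99.7 CPM in C. These groups also did not overlap, with a log2 fold change of 0.72 ± 0.28 with library 1 and 0.99 ± 0.27 without it, and the weighted fit called both genes (limma-voom adjusted p = 0.0273 for Hspe1 and 0.0185 for Hspd1).

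Of the cytosolic chaperones, some kept that order in every library and others in October only. Hspa8, the constitutive HSC70 chaperone, had 1604, 2069 and 1929 CPM in RIC+DE+PFD and 1194, 871 and 763 CPM in C, a mean of 1867 ± 239 against 943 ± 224 (SD, n = 3 each). The fitted difference was 2.06-fold, a log2 fold change of 1.04 ± 0.32 (edgeR adjusted p = 0.25; limma-voom with weights, adjusted p = 0.0128). Hspb1, a small heat shock protein that holds unfolding clients, had 357, 389 and 479 CPM in RIC+DE+PFD and 75.7, 145 and 139 CPM in C. Its lowest RIC+DE+PFD library was above its highest C library, and its log2 fold change was 1.78 ± 0.55, or 1.83 without library 1. Fkbp4, an HSP90 co-chaperone of steroid receptors, had 513, 413 and 430 CPM in RIC+DE+PFD, against 255, 225 and 213 CPM in C. Ahsa1, which stimulates the ATPase of HSP90, had 214, 141 and 146 CPM in RIC+DE+PFD and 85.1, 81.6 and 77.1 CPM in C. In both genes the groups lay apart, and library 1 was the highest in RIC+DE+PFD, by more for Ahsa1. The log2 fold changes were 0.97 ± 0.29 for Fkbp4 and 1.02 ± 0.28 for Ahsa1.

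**Figure D1:**
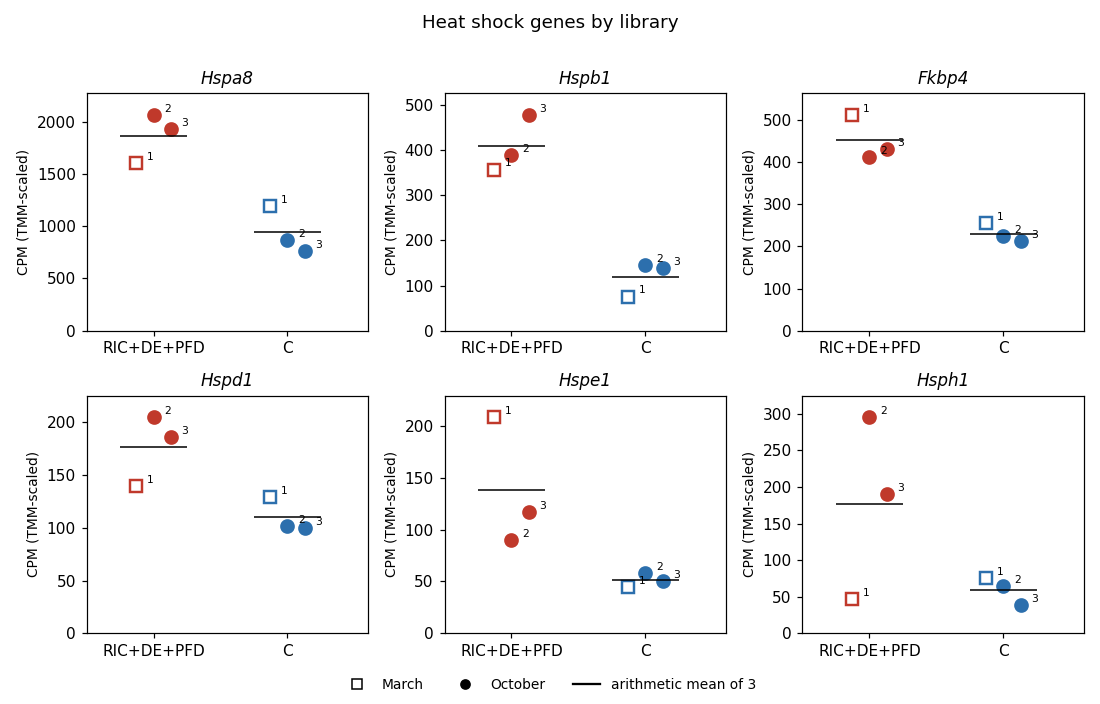
Each panel plots one heat shock gene in CPM on a linear axis from 0, with RIC+DE+PFD on the left and C on the right; numbers name the library, open squares carry the March date, filled circles the October date, and lines are means of 3. In every panel but that of Hsph1 the 3 RIC+DE+PFD libraries lie above the 3 C libraries; for Hsph1 library 1, at 46.6 CPM, falls among the C libraries.

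Other members were high in RIC+DE+PFD libraries 2 and 3 and not in library 1. Hsp90aa1, the stress-responsive HSP90, had 292, 685 and 785 CPM in RIC+DE+PFD and 513, 351 and 324 CPM in C. Hsp90ab1, the constitutive one, had 1105, 2552 and 2847 CPM in RIC+DE+PFD and 1320, 1435 and 1299 CPM in C. In both, library 1 was below all of C and libraries 2 and 3 above it. Stip1, which links HSP70 to HSP90, had 108, 224 and 219.7 CPM in RIC+DE+PFD and 106, 111 and 83.9 CPM in C. Hsph1, an HSP110 exchange factor of HSP70, had 46.6, 295 and 190 CPM in RIC+DE+PFD and 75.8, 64.9 and 38.6 CPM in C. Library 1 lay within the C range and the other two lay above it, so the log2 fold change was 1.69 ± 0.71 with library 1 and 2.34 without it. Hspa1a and Hspa1b encode nearly identical inducible HSP70 proteins, and reads shared between them may be split or lost. Hspa1b had 29.2, 474 and 144 CPM in RIC+DE+PFD and 28.9, 63.0 and 19.5 CPM in C, a wide scatter within both groups. Hspa4l, an HSP110 relative, had 31.0, 82.0 and 97 CPM in RIC+DE+PFD and 75.6, 44.6 and 47.5 CPM in C. Its March libraries ran the other way from its October libraries, and its log2 fold change was 0.48 ± 0.38 with library 1 and 1.04 without. Of the heat shock factors, Hsf1 had 70.0, 63.4 and 64.6 CPM in RIC+DE+PFD and 40.9, 70.3 and 63.4 CPM in C, and without library 1 its log2 fold change was 0.02 ± 0.18. That of Hsf2 was -0.02 ± 0.18.

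Among the 24 libraries the heat shock list stood highest in DE+PFD+RIC library 1, followed by RIC+DE+PFD library 2. The median of the list relative to the mean of all 24 libraries was -0.14, 0.46 and 0.37 on the log2 scale in RIC+DE+PFD libraries 1 to 3, against -0.34, -0.38 and -0.55 in C. Values within those of C also stood in RIC+DE library 1 (-0.50), DE+PFD+RIC library 3 (-0.52), RIC library 2 (-0.45) and DE library 1 (-0.43). The list median was 1.26 in DE+PFD+RIC library 1 and 0.23 in DE+PFD+RIC library 2, and 0.30, 0.11 and 0.36 in DE+PFD. Among groups without pirfenidone it reached 0.44 in RIC library 3 and 0.38 in DE library 3, and lay lower in the other libraries of those groups. Against the mean of the other 5 diesel groups the list median was 0.26, or 0.53 without library 1. There 3 of the 22 members were called higher (9.3% of all genes were), and none without library 1 (0.00568% of all genes).

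Circadian clock genes had the highest median of the 59 lists between the October libraries of RIC+DE+PFD and C, and most differed in the opposite direction between the March libraries. The clock is a loop in which ARNTL (BMAL1), with CLOCK or NPAS2, drives Per and Cry genes whose proteins then repress them, with DBP, TEF and HLF as output factors; most of its transcripts swing over the day. The labels give no time of day for tissue collection. Per2, a repressor of the loop, had 10.5, 173 and 91.3 CPM in RIC+DE+PFD and 87.9, 11.6 and 10.8 CPM in C. Its lowest RIC+DE+PFD library and its highest C library are the March pair, and both October pairs are reversed. Arntl, at the opposite phase, had 42.4, 5.73 and 11.8 CPM in RIC+DE+PFD and 8.00, 47.4 and 53.2 CPM in C. Here the March RIC+DE+PFD library was high and the October ones low, the mirror image of Per2.

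In the October libraries alone edgeR called 5 of the 19 clock list members tested, where 0.0687% of all genes were called higher and 0.109% lower. Per2 had a log2 fold change of 3.56 ± 0.61 (edgeR adjusted p = 0.0374), Per3 of 2.34 ± 0.36 (0.0223), Tef of 2.12 ± 0.31 (0.0211), Cry2 of 1.24 ± 0.19 (0.0223) and Arntl of -2.55 ± 0.45 (0.0441). The list median was 1.09 there, against 0.20 with all libraries and 0.71 without RIC+DE+PFD library 1. It was -0.28 without RIC+DE+PFD library 2, and -0.24 and -0.05 without C library 2 or 3. Tef had 98.9, 394 and 274 CPM in RIC+DE+PFD and 324, 76.4 and 77.5 CPM in C, and Per3 had 15.2, 124 and 71.7 CPM in RIC+DE+PFD and 110, 21.3 and 17.5 CPM in C. Both show the same cross between dates. A difference of at least 1 on the log2 scale with opposite signs in March and October, and with the October libraries of the groups apart, was met by 11 of the 19 clock members and by 243 of all 17490 genes (1.39%). None of the 22 heat shock members met it, and 1 met the same sizes with equal signs on both dates (0.572% of all genes). With signs opposite at any size stood 9 heat shock members (40.9%), 16 clock members (84.2%) and 54.4% of all genes.

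The promoters of Tef and Per3 are shown because they hold the elements through which the loop is known to act. Capitals mark CACGTG (E-box, bound by ARNTL with its partners) in Tef and TTA, any base, GTAA (D-box, bound by TEF and its relatives) in Per3, both strands searched. Of the clock list, 16 members have an entry in the same RefSeq table (GRCm38.p6); 5 of them (31.2%) hold the E-box, against 8.09% of all genes with a promoter, and 1 (6.25%) holds the D-box, against 2.72%.

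Tef, chr15:81802509-81802588, plus strand: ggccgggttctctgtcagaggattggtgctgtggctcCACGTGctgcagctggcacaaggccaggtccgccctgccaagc
Per3, chr4:151044804-151044883, minus strand: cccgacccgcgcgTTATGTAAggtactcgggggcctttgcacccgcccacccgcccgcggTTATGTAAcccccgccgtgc

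The groups did not overlap for Clock itself. Clock, the binding partner of ARNTL, had 21.8, 34.0 and 34.5 CPM in RIC+DE+PFD and 58.3, 51.1 and 48.8 CPM in C, a log2 fold change of -0.79 ± 0.21 (edgeR adjusted p = 0.25) and of -0.52 without library 1. All 3 RIC+DE+PFD libraries were below all 21 others, whose lowest was 44.2 CPM. Npas2, which can replace CLOCK, crossed between dates as Arntl did, with 13.8, 2.37 and 3.69 CPM in RIC+DE+PFD and 4.96, 18.6 and 24.4 CPM in C.

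**Figure D2:**
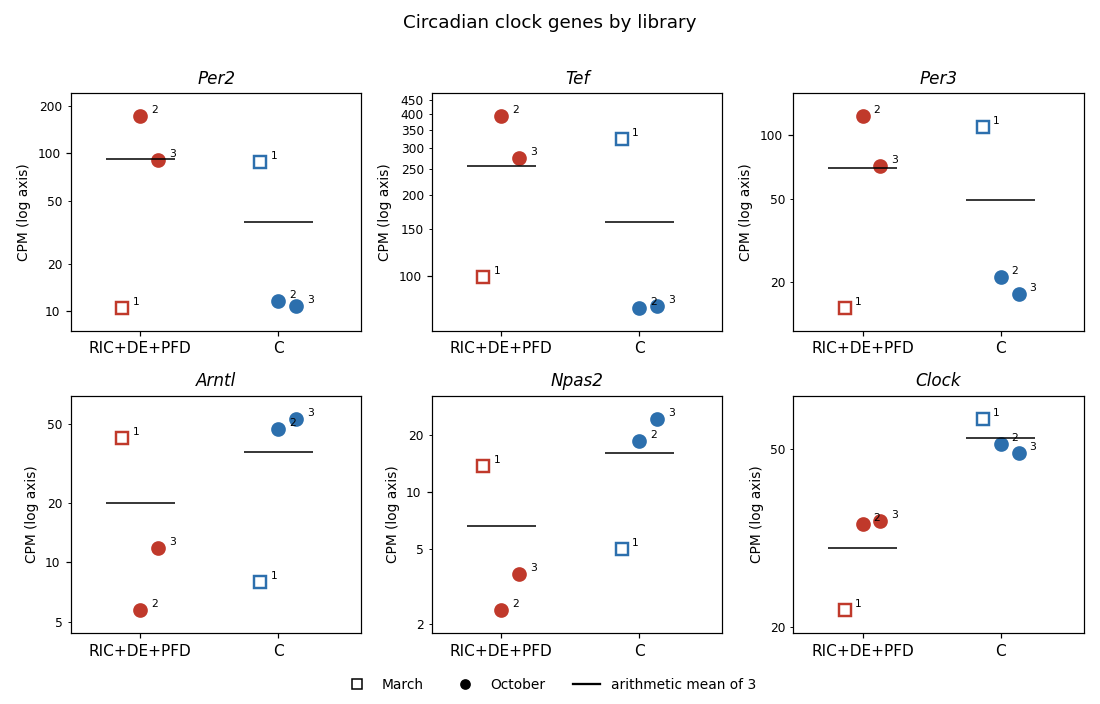
Each panel plots one clock gene in CPM on a log axis, with RIC+DE+PFD left and C right; open squares carry the March date, filled circles the October date, and lines are arithmetic means of 3. In Per2, Tef, Per3, Arntl and Npas2 the open square of each group lies with, or near, the filled circles of the other group, and only in Clock do all RIC+DE+PFD libraries (21.8 to 34.5 CPM) lie below all C libraries (48.8 to 58.3 CPM).

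The genes with the smallest p-values outside these lists were lowly and moderately expressed. Over all genes, all 3 RIC+DE+PFD libraries lay above all 3 C libraries in 6.35% and below them in 5.96%. The lower and higher genes named next were picked by p-value in these libraries. Their separation and their calls in the weighted fit follow in part from that choice. Cttnbp2, which binds cortactin in the actin cytoskeleton, had the smallest p of all genes, with 4.24, 4.00 and 2.08 CPM in RIC+DE+PFD and 8.43, 11.0 and 11.8 CPM in C. Every RIC+DE+PFD library was below every C library, and the gap was smaller in March than in October. Its log2 fold change was -1.58 ± 0.26 (edgeR adjusted p = 0.101), -1.80 ± 0.28 without library 1 (0.0658), -1.88 ± 0.31 in October alone (0.0356) and -2.07 ± 0.25 with weights (limma-voom adjusted p = 0.00108). Kcnb2, a voltage-gated potassium channel, had 0.771, 1.27 and 1.04 CPM in RIC+DE+PFD and 1.67, 5.32 and 4.33 CPM in C, again with the wider gap in October, and its log2 fold change was -1.78 ± 0.34. Slc8a1, the plasma membrane sodium-calcium exchanger, had 10.9, 18.9 and 23.6 CPM in RIC+DE+PFD and 29.1, 36.4 and 40.3 CPM in C. Inpp4b, a phosphoinositide phosphatase, had 9.77, 13.3 and 12.8 CPM in RIC+DE+PFD and 20.96, 25.7 and 28.9 CPM in C. The log2 fold changes were -1.0 ± 0.21 for Slc8a1 and -1.07 ± 0.22 for Inpp4b, and -0.79 and -0.99 without library 1; the weighted fit called all 4 of these genes lower.

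On the higher side stood Ptgis, the prostacyclin synthase that makes a vasodilator in vessel walls. It had 232, 187 and 190 CPM in RIC+DE+PFD and 103, 115 and 127 CPM in C, a mean of 203 ± 25.4 against 115 ± 11.95 (SD, n = 3 each). The groups were well apart, with a log2 fold change of 0.83 ± 0.20 (edgeR adjusted p = 0.25) and of 0.64 ± 0.18 without library 1. Clec3b, the plasminogen-binding protein tetranectin, had 348, 208 and 222 CPM in RIC+DE+PFD and 151, 158 and 143 CPM in C. Slc25a33, a mitochondrial carrier of pyrimidine nucleotides, had 25.6, 18.9 and 19.7 CPM in RIC+DE+PFD and 11.4, 9.43 and 10.6 CPM in C. Ing1, a chromatin reader of the inhibitor of growth family, had 82.5, 61.0 and 60.3 CPM in RIC+DE+PFD and 56.2, 39.5 and 38.9 CPM in C. Their log2 fold changes were 0.77, 1.03 and 0.60 with library 1 and 0.48, 0.78 and 0.50 without it, and the weighted fit called all 4 higher genes.

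Without library 1 the order of p-values brought up other genes. Hspa2, an HSP70 family member outside the list used above, had 16.7, 47.2 and 43.3 CPM in RIC+DE+PFD and 34.4, 24.7 and 24.2 CPM in C, a log2 fold change of 0.89 ± 0.16 without library 1 and 0.41 ± 0.30 with it. Tmem200b, a transmembrane protein gene, had 15.4, 33.8 and 34.6 CPM in RIC+DE+PFD and 25.9, 15.2 and 13.1 CPM in C. Spsb1, an adaptor for a ubiquitin ligase, had 17.6, 31.7 and 29.3 CPM in RIC+DE+PFD and 21.5, 15.1 and 16.7 CPM in C. In these 3 genes library 1 was below the March C library while libraries 2 and 3 were above both October C libraries. Glt8d2 had 11.3, 15.3 and 13.5 CPM in RIC+DE+PFD, above all of 10.2, 5.32 and 5.74 CPM in C. Scd1, the desaturase that makes monounsaturated fatty acids and a gene named after its values were seen, had 1005, 693 and 740 CPM in RIC+DE+PFD and 874, 2043 and 2268 CPM in C. Its October difference was called by edgeR (log2 fold change -1.59 ± 0.24, adjusted p = 0.0211), while its March libraries lay close together.

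Genes of the endoplasmic reticulum stress response and of NRF2 were higher in smaller steps, the NRF2 list more so with library 1 than without it. Of the 28 unfolded protein response members, 8 had all 3 RIC+DE+PFD libraries above all 3 C libraries (6.35% of all genes did so), and the list median was 0.31, or 0.29 without library 1, when all 28 stood above 0. Herpud1, which recruits the machinery that degrades misfolded proteins, had 281, 259 and 289 CPM in RIC+DE+PFD and 209, 127 and 148 CPM in C, with a log2 fold change of 0.78 ± 0.26 and a call in the weighted fit (limma-voom adjusted p = 0.0234). Manf, a secreted ER stress protein, had 434, 123 and 192 CPM in RIC+DE+PFD and 90.4, 112 and 111 CPM in C. Creld2, another ER stress protein, had 137, 69.0 and 113 CPM in RIC+DE+PFD and 57.2, 65.5 and 65.9 CPM in C. Both genes had no overlap between groups, and library 1 was the highest in each, so the log2 fold change of Manf was 1.17 with it and 0.56 without.

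Over 35 NRF2 targets and antioxidant genes the median log2 fold change was 0.40, and 0.13 without library 1. At an unadjusted p under 0.05, 12 members were higher (11.1% of all genes), and 4 without library 1 (3.39% of all genes). Osgin1, an oxidative stress-induced growth inhibitor, had 52.4, 59.3 and 48.1 CPM in RIC+DE+PFD and 46.6, 30.2 and 21.4 CPM in C. Its 3 RIC+DE+PFD values were the highest of the series, and it was called in October (edgeR log2 fold change 1.06 ± 0.19, adjusted p = 0.0441). Gsta3, a glutathione transferase of club cells, had 675, 397 and 474 CPM in RIC+DE+PFD and 417, 211 and 209 CPM in C, and its log2 fold change was 0.92 with library 1 and 0.90 without. Cyp1a1, the classical aryl hydrocarbon receptor target, was low in all RIC+DE+PFD libraries, at 1.16, 3.82 and 4.04 CPM, against 153, 7.13 and 6.71 CPM in C. The March C library stood far above the other 5, and the log2 fold change of -2.52 ± 1.24 (edgeR adjusted p = 0.30) was -0.82 ± 0.32 in October alone (0.38). The xenobiotic metabolism list had a median of 0.42, and 0.32 without library 1.

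In 4 of 25 hypoxia genes and 4 of 19 conditioning mediator genes all 3 RIC+DE+PFD libraries lay above all 3 C libraries (6.35% of all genes). In 1 conditioning mediator gene and no hypoxia gene they lay below (5.96% of all genes). The collagen prolyl hydroxylase subunits P4ha1 and P4ha2, both hypoxia-inducible, were higher in October: P4ha1 had 83.7, 154 and 170 CPM in RIC+DE+PFD and 103, 87.7 and 80.1 CPM in C, and P4ha2 had 52.7, 76.6 and 102 CPM in RIC+DE+PFD and 57.4, 52.7 and 44.0 CPM in C. Without library 1 their log2 fold changes were 1.00 and 0.90, and the weighted fit called both. The bradykinin receptor genes, which belong to the mediators named for ischemic conditioning, were lowly expressed. Bdkrb1 had 4.11, 5.00 and 4.27 CPM in RIC+DE+PFD and 2.98, 1.21 and 2.49 CPM in C, and Bdkrb2 had 5.65, 17.3 and 16.2 CPM in RIC+DE+PFD and 8.62, 8.10 and 8.87 CPM in C. The groups did not overlap for Bdkrb1 and did for Bdkrb2. The medians of the hypoxia list (25 genes) and of the conditioning mediator list (19 genes) were 0.18 and 0.07, or 0.16 and 0.08 without library 1.

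Among matrix genes a few members were lower in RIC+DE+PFD, while the median of the list followed library 1. The 25 fibrillar collagen and matrix genes had a median log2 fold change of -0.32 with all libraries and 0.02 without library 1, and 5 of them had all 3 RIC+DE+PFD libraries below all 3 C libraries (5.96% of all genes did so). In 7 of them RIC+DE+PFD libraries 2 and 3 did (10.3% of all genes), and in 6 those libraries lay above all of C (11.5% of all genes). Lox, the lysyl oxidase that crosslinks collagen and elastin, had 17.5, 16.9 and 23.4 CPM in RIC+DE+PFD and 51.1, 31.7 and 34.2 CPM in C. The groups were apart, the log2 fold change was -0.98 ± 0.25 (edgeR adjusted p = 0.25) and -0.79 without library 1, and no library of the other 21 was lower than 23.5 CPM. Fbn1, the fibrillin of elastic microfibrils, had 27.9, 60.7 and 48.8 CPM in RIC+DE+PFD and 81.3, 88.6 and 87.9 CPM in C, a log2 fold change of -0.90 ± 0.27 that the weighted fit called (limma-voom adjusted p = 0.0486). Eln, elastin itself, had 128, 117 and 201 CPM in RIC+DE+PFD and 132, 449 and 456 CPM in C. The October libraries differed for Eln by -1.52 ± 0.38 on the log2 scale (edgeR adjusted p = 0.15), and the March libraries were nearly equal. Loxl1, a relative of Lox that acts on elastin, crossed between dates, with 148, 79.5 and 73.9 CPM in RIC+DE+PFD and 69.3, 187 and 181 CPM in C.

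The type I collagen chains did not move together outside library 1. Col1a2 had 132, 471 and 484 CPM in RIC+DE+PFD and 391, 451 and 379 CPM in C, with a log2 fold change of -0.22 ± 0.35, or 0.24 without library 1. Col1a1, the other chain, had 71.1, 212 and 255 CPM in RIC+DE+PFD and 277, 387 and 371 CPM in C. All RIC+DE+PFD values were below all C values, with a log2 fold change of -1.01 ± 0.39 (edgeR adjusted p = 0.25) and of -0.62 ± 0.37 without library 1. Col3a1 had 176, 314 and 306 CPM in RIC+DE+PFD and 362, 456 and 386 CPM in C, a log2 fold change of -0.60 ± 0.35, or -0.33 without library 1. Among the upstream genes Itgb6, the epithelial integrin chain that activates latent TGF-beta, had 35.5, 21.7 and 24.1 CPM in RIC+DE+PFD and 40.1, 41.8 and 45.3 CPM in C. It differed by -0.66 ± 0.25 with library 1 and by -0.90 without, and the weighted fit called it (limma-voom adjusted p = 0.0335). The 22 TGF-beta pathway genes had a median of -0.32. At an unadjusted p under 0.05, 1 was higher and 3 lower (11.1% and 5.99% of all genes). Without library 1 the median was 0.02, with 2 higher and 1 lower (3.39% and 3.72% of all genes). The ligands Tgfb1 and Tgfb3 had log2 fold changes of -0.53 ± 0.20 and -0.52 ± 0.18, which were -0.34 and -0.37 without library 1. Of 21 fibrosis, inflammation and exposure genes listed as readouts, 2 were higher and 2 lower at an unadjusted p under 0.05, and 1 differed at that level without library 1. The shares over all genes, 11.1% higher and 5.99% lower, are close to the readout counts with library 1. Without library 1 the shares over all genes were 3.39% and 3.72%.

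**Figure D3:**
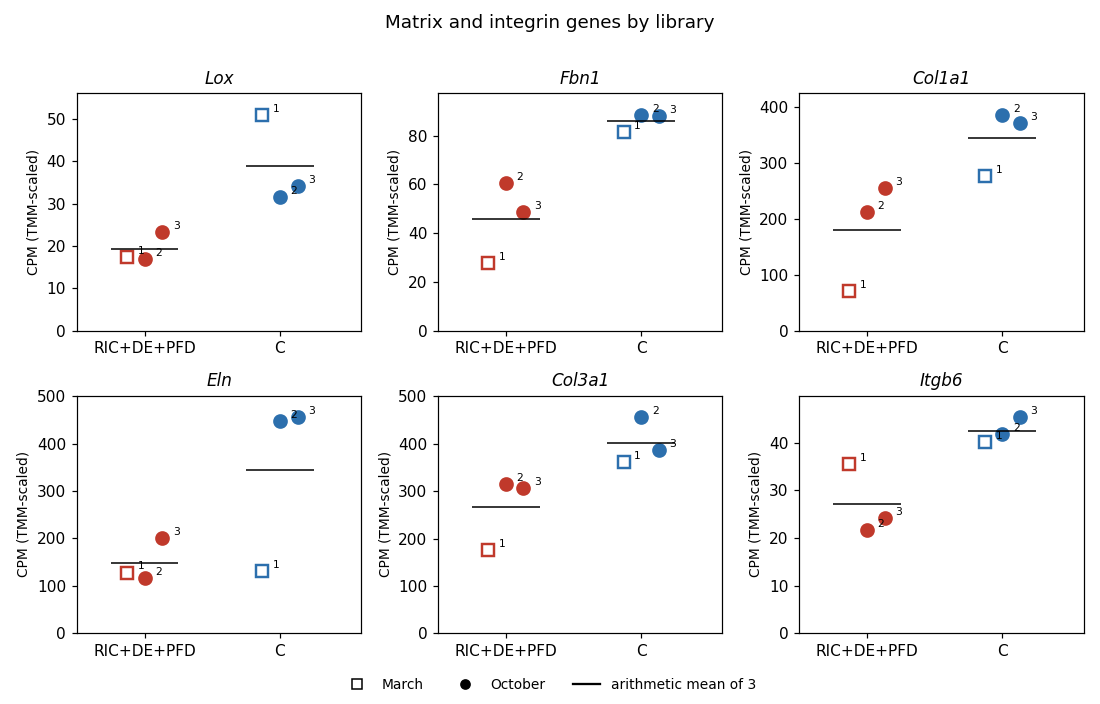
Each panel plots one matrix or integrin gene in CPM on a linear axis from 0, with RIC+DE+PFD left and C right; open squares carry the March date, filled circles the October date, and lines are means of 3. In Lox, Fbn1, Col1a1, Col3a1 and Itgb6 the RIC+DE+PFD libraries all lie below the C libraries, and in Eln the March squares of the groups lie together at 128 and 132 CPM.

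Among immune and epithelial lists, B cell genes had the lowest median apart from cartilage, -0.55 over 16 genes and -0.74 without library 1. The summed level of the list was 645, 641 and 625 CPM in RIC+DE+PFD and 575, 1140 and 769 CPM in C. The RIC+DE+PFD libraries were alike and C library 2 was the high one, and in 3 of the 16 members all RIC+DE+PFD libraries were below all of C (5.96% of all genes). Bank1, a B cell scaffold protein, had 8.74, 12.1 and 23.9 CPM in RIC+DE+PFD and 24.0, 47.7 and 33.8 CPM in C, a log2 fold change of -1.28 ± 0.38. Ebf1, the factor that specifies B cells and is also expressed in lung pericytes and fibroblasts, differed by -0.84 ± 0.29. The alveolar macrophage list had a median of 0.03, and of -0.34 without library 1. Mrc1, the mannose receptor, had 26.0, 35.8 and 34.1 CPM in RIC+DE+PFD and 62.1, 40.4 and 55.5 CPM in C, without overlap, and Chil3, a chitinase-like product of alveolar macrophages, had 341, 256 and 257 CPM in RIC+DE+PFD and 310, 424 and 1016 CPM in C. The T cell, neutrophil and cytokine lists had medians of -0.23, -0.26 and 0.14, or -0.26, -0.23 and -0.04 without library 1, with 1 of 22 T cell members and 1 of 15 neutrophil members lower, and 3 of 33 cytokine members higher, at an unadjusted p under 0.05. Over all genes 5.99% were lower and 11.1% higher at that level, so these counts are near the background. Left-out libraries moved the neutrophil median between -0.85 (without RIC+DE+PFD library 3) and 0.12 (without RIC+DE+PFD library 2 or C library 2).

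Lists of short and abundant transcripts stood far higher with library 1 than without it. The ribosomal protein genes summed to 120000, 30300 and 33100 CPM in RIC+DE+PFD and 24100, 27800 and 30200 CPM in C. Their median log2 fold change was 1.12 over 45 genes, 43 of them higher at an unadjusted p under 0.05 (11.1% of all genes). Without library 1 the median was 0.08 and no member was at that level, though 42 were above 0. In 22 of the 45, RIC+DE+PFD libraries 2 and 3 lay above all of C (11.5% of all genes). Nuclear oxidative phosphorylation genes moved alike, with a median of 1.00 over 43 genes and of 0.02 without library 1, as did ubiquitin and proteasome subunits at 0.66 and 0.07. Lists of long genes went the other way: chromatin regulators stood at -0.44 with library 1 and -0.02 without it, and giant structural and adhesion genes at -0.37 and 0.11. Scgb1a1 had 156900, 38690 and 38970 CPM in RIC+DE+PFD and 35740, 26960 and 33650 CPM in C, and its log2 fold change of 1.17 ± 0.45 was 0.22 without library 1. The share of counts in the most abundant genes and the exon length relation given above move with these lists, and their part in the result was not tested.

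**Figure D4:**
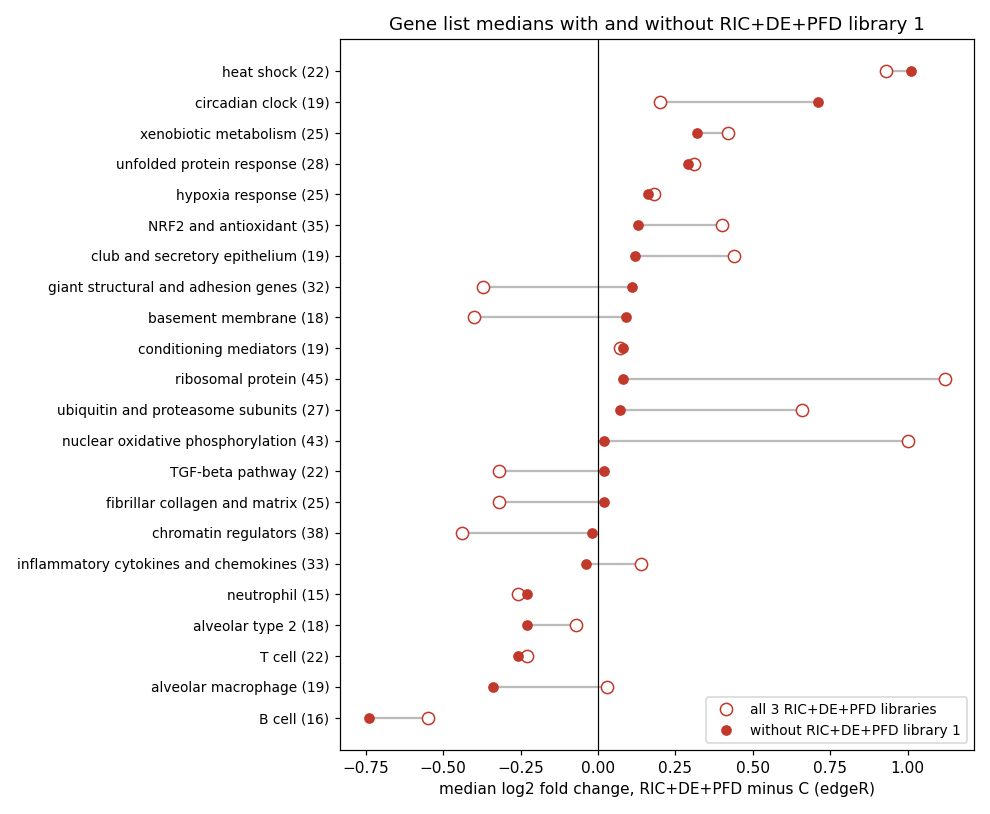
Each row is a gene list with its number of tested genes in brackets; the horizontal axis is the median log2 fold change of RIC+DE+PFD minus C in edgeR, open circles with all 3 RIC+DE+PFD libraries and filled circles without library 1. The heat shock list stays near 1 (0.93 and 1.01), while the ribosomal protein list is at 1.12 with library 1 and at 0.08 without it.

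Set against the mean of the other 5 diesel groups rather than C, RIC+DE+PFD had 1627 genes higher (9.3%) and 391 lower (2.24%) at an edgeR adjusted p under 0.05. Without library 1 there was 1 higher gene (0.00568%) and none lower. That gene was Tmem200b, with a log2 fold change of 1.09 ± 0.16 (edgeR adjusted p = 0.0287). Of the ribosomal protein genes 41 of 45 were called higher in this comparison with library 1, and none without it. The weighted fit called 191 genes, and the October libraries alone 11.

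A small set of genes set all 3 RIC+DE+PFD libraries outside the range of all 21 other libraries: 79 genes above it (0.452%) and 104 below it (0.595%). Libraries 2 and 3 alone were above it in 170 genes (0.972%) and below it in 165 (0.943%). Ptgis was above it, at 187 CPM or more in RIC+DE+PFD against 162 CPM or less elsewhere, and so was Osgin1, at 48.1 CPM or more against 46.6 CPM or less. Cttnbp2 was below it, at 4.24 CPM or less in RIC+DE+PFD and 5.73 CPM or more elsewhere, where the lowest value was in RIC+DE library 2. Slc8a1, Inpp4b, Lox and Clock were below it too. For Ptgis, Osgin1, Cttnbp2, Slc8a1, Inpp4b, Lox and Clock the difference from the other 5 diesel groups had an edgeR adjusted p of 0.0308 with library 1, and none passed without it; the lowest value then was 0.0736, for Cttnbp2. These genes were picked out for lying outside the range of the other libraries, which include those 5 diesel groups. The count of such genes is therefore a description and carries no test. Small p-values against those groups follow in part from the same choice, so no conclusion is drawn from them.

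**Figure D5:**
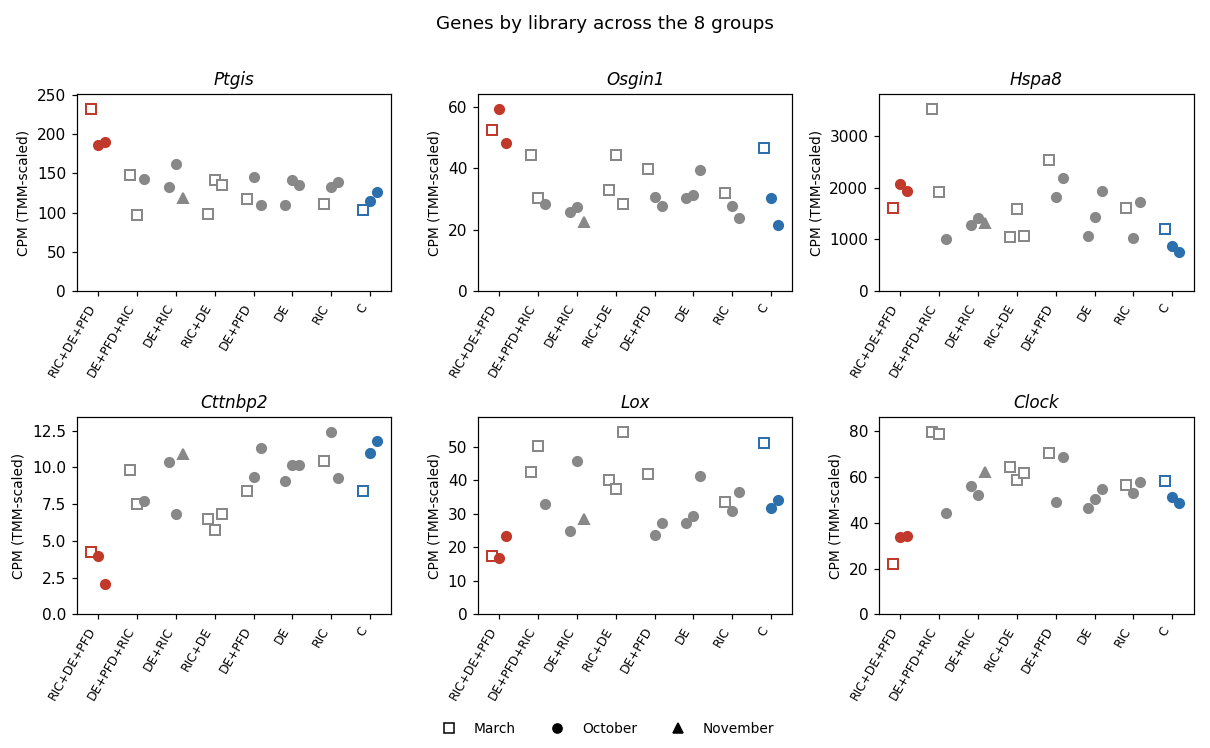
Each panel plots one gene in CPM on a linear axis from 0 in all 24 libraries by group, RIC+DE+PFD leftmost in red, C rightmost in blue, the other groups in grey; open squares carry the March date, filled circles October, the triangle November. RIC+DE+PFD lies above the other libraries for Ptgis and Osgin1 and below them for Cttnbp2, Lox and Clock, whereas for Hspa8 its 1604 to 2069 CPM fall inside the range of the other groups, whose highest is 3518 CPM.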

How the data were processed

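The authors deposited 1 table of raw read counts per gene for 24 libraries. Per the submitters' processing notes the tools were FastQC 0.12.1, fastp 0.23.4, STAR 2.7.11b, featureCounts, R 4.4.1 and DESeq2, with genome build GRCm39; the sources used here do not give the counting strand or annotation. Per the labels' protocols, poly(A) RNA was captured with oligo(dT). Here the counts were fitted in edgeR 4.0.16 (R 4.3.3) by the quasi-likelihood test on all 24 libraries, with group and label date as terms, trimmed mean of M-values scaling, edgeR's default filter on low counts and Benjamini-Hochberg adjustment at 0.05. CPM use the scaled library sizes; standard errors are the log2 fold change over the root of F. Gene types and exon lengths came from GENCODE M21 (GRCm38), gene names from a separate list of gene symbols, and promoters from RefSeq (GRCm38.p6). DESeq2 1.42.0, limma-voom (limma 3.58.1), other filters and scalings, date subsets, replicate blocks and each left-out library were alternatives; the test was checked on simulated counts. The members, gene lists and tests were chosen with earlier results of these data known. Named genes were the 4 with the smallest p in each direction with and without RIC+DE+PFD library 1 (mean of at least 1 CPM, no predicted genes or pseudogenes), up to 3 a list by p, and the readouts; heat shock, clock and other list members beyond these, and Hspa8, Scd1 and the remaining October calls, were named after their values were seen. Pairs of libraries within a group differed by more than sampling noise, so none was taken as a duplicate.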

Additional observations from a re-analysis of the deposited data

Results flagged for a closer look

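In 23 of 370 genes kept for naming (clock and other list members, readouts and October calls) the RIC+DE+PFD minus C difference had opposite signs in March and October. Counted were differences of at least 1 on the log2 scale on both dates with the October libraries of the groups apart, which 1.39% of all genes met; opposite signs of any size stood in 154 of the 370. The difference between dates was not tested, since each group has 1 March library. Values are differences in log2 CPM, for March and then for the mean of October. Among clock genes with a negative March and a positive October difference stood Per2 (-3.04 and 3.46), Nr1d2 (-2.99 and 2.16), Hlf (-2.98 and 1.85), Per3 (-2.84 and 2.28), Per1 (-2.38 and 1.22) and Dbp (-1.95 and 2.90). The same held for Bhlhe41 (-1.90 and 1.05), Tef (-1.71 and 2.09) and Cry2 (-1.25 and 1.24), and outside the clock list for Ces1g (-2.42 and 1.56), Wee1 (-1.52 and 1.89) and Cys1 (-1.01 and 1.93). The opposite signs stood in Arntl (2.38 and -2.58), Npas2 (1.44 and -2.77), Acoxl (1.01 and -1.34), Adamts17 (1.26 and -1.54), Nxph3 (1.42 and -1.44) and Glipr2 (1.68 and -1.30). They also stood in Loxl1 (1.09 and -1.26), Tulp1 (1.36 and -1.80), the B cell receptor component Cd79a (1.72 and -1.07) and the vasodilator peptide gene Adm (1.72 and -1.53). Spon2, a secreted matrix protein, had the widest cross (5.15 and -3.93), with 117, 4.64 and 4.61 CPM in RIC+DE+PFD and 3.10, 77.5 and 68.7 CPM in C.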

How the results depend on the processing

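The count of genes past the threshold between RIC+DE+PFD and C was 0 in the main design. It was also 0 with DESeq2 size factors, a CPM filter, November read as October, the compared groups alone, both replicate blocks and each left-out library (range 0 to 0). It was 33 with DESeq2, 686 with no filter on low counts, 1 with no date term, 31 in October alone, 276 with library weights and 4970 in March alone. March alone sets 1 library against 1, each assumed to vary like the other groups. Against the other 5 diesel groups the count of 2018 became 11 in October alone, 7743 in March alone, 0 with the compared groups alone, 0 with the replicate block and date, 191 with weights, and 1 to 4195 when one library was left out. That lowest count is without RIC+DE+PFD library 1, and the counts without its libraries 2 and 3 were 4195 and 3327. Replicate numbers did not pair the libraries: deviations of same-numbered libraries correlated at -0.198, -0.0881 and -0.121. The log2 fold change turned sign in March alone for Hsph1 (-0.76), Hspa4l (-1.35), Hspa2 (-1.10), Per2 (-3.12), Per3 (-2.91), Tef (-1.77), Cry2 (-1.32), Arntl (2.35), Npas2 (1.41), P4ha1 (-0.35), P4ha2 (-0.18), Bdkrb2 (-0.67), Tmem200b (-0.81), Spsb1 (-0.34), Tulp1 (1.42), Platr22 (0.16), Scd1 (0.14) and Chil3 (0.08). With one library left out it ranged over 0 for Per3 (-0.13 to 1.92), Tulp1 (-1.99 to 0.15) and Sftpc (0.00 to 1.11). So did the list medians of the clock (-0.28 to 0.80), neutrophils (-0.85 to 0.12) and alveolar macrophages (-0.34 to 0.27). Medians of fibrillar collagen and matrix (-0.62 to 0.02), basement membrane (-0.72 to 0.09), TGF-beta pathway (-0.46 to 0.02) and alveolar type 2 genes (-0.23 to 0.11) did too. The rest were cytokines (-0.04 to 0.37), conditioning mediators (-0.05 to 0.08) and giant structural and adhesion genes (-0.73 to 0.11). The cause was not tested.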

Other observations

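Genes of tissues that border the lung varied between libraries more than between groups. Cardiac muscle genes summed to 1340, 1330 and 905 CPM in RIC+DE+PFD and 342, 1570 and 991 CPM in C. Adipocyte genes summed to 550, 468 and 260 CPM in RIC+DE+PFD and 193, 322 and 438 CPM in C. Cartilage genes, which had the lowest median of all lists (-1.34, and -1.53 without RIC+DE+PFD library 1), summed to 78.5, 30.8 and 24.8 CPM in RIC+DE+PFD and 27.5, 46.4 and 52.7 CPM in C, and their groups overlapped.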
